A study of Mus musculus with 103 samples.

Results

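The genes described are 10 nuclear receptors other than the liver X receptors and Pparg: Nr4a1, Nr4a2, Nr4a3, Nr1d1, Nr1d2, Nr3c1, Rxra, Rxrb, Rara and Vdr. They were taken by symbol from an RNA table of 24014 gene symbols, with 1 transcript for each, the one of highest mean level, and all 10 were found. Binding was taken from the peak lists of SREBP1 and of the liver X receptor (LXR) as peaks centred within 10 kb of a start site of the gene or inside it. The cells were macrophages that collect in the peritoneum of male C57Bl/6 mice, 6 to 8 weeks old, after injection of thioglycollate. They were plated, starved of serum overnight and left untreated or given 100 ng/ml of KLA. KLA is Kdo2-lipid A, the lipid part of bacterial lipopolysaccharide that stimulates the receptor TLR4. The 6 RNA libraries, 1 per condition, were an untreated library named for 1 to 12 h, KLA at 1, 6 and 12 h, KLA at 24 h and an untreated library for 24 h. The 2 ChIP-seq lists came from the same kind of cell and are titled for GW3965, a synthetic LXR agonist. The SREBP1 sample is labelled with 1 µM for 18 h. For the LXR sample the title and a header that names 5 h of GW3965 go against its treatment label, which gives no treatment, so its treatment is uncertain.

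Nuclear receptors are transcription factors that carry a zinc finger domain for DNA and, in most members, a pocket for a small lipid-soluble ligand. Glucocorticoids bind NR3C1, vitamin D binds VDR and retinoic acid binds RARA, and the retinoid X receptors RXRA and RXRB are the shared partners with which VDR, RARA, LXR and PPARG pair on DNA. REV-ERBα (Nr1d1) and REV-ERBβ (Nr1d2) bind haem and repress genes of the circadian clock. The NR4A proteins (Nr4a1, Nr4a2 and Nr4a3) have no known classical ligand and are known for brief induction of their genes by growth factors and inflammatory signals. In macrophages the glucocorticoid receptor is the target of anti-inflammatory steroids.

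The promoters of the Nr4a genes are shown first because Nr4a1 had the largest response to KLA of the 10 genes and the 3 genes are one family. The sequences are RefSeq's, on build GRCm38.p6, and run 5′ to 3′ over the 250 bases before the start: chr15:101266596-101266845 on the plus strand for Nr4a1, chr2:57124004-57124253 on the minus strand for Nr4a2 and chr4:48045055-48045304 on the plus strand for Nr4a3. Capitals mark TGACG, the core of the cAMP response element, or its complement on the other strand.
Nr4a1: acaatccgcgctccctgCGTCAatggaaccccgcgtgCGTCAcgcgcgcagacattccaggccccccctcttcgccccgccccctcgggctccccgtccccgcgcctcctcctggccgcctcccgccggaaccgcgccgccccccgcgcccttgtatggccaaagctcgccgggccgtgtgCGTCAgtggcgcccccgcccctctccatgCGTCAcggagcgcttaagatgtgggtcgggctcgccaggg
Nr4a2: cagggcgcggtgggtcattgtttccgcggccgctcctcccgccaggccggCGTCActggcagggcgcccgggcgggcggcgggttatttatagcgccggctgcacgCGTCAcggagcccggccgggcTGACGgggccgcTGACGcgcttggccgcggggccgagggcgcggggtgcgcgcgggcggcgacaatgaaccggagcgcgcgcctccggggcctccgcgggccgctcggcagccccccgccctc
Nr4a3: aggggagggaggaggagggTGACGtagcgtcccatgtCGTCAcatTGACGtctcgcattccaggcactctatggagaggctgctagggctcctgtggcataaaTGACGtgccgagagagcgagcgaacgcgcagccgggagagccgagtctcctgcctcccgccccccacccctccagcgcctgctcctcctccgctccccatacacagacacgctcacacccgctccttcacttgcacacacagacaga

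Each of the 3 promoters held TGACG 4 times over both strands. In Nr4a1 the matches began 233, 213, 69 and 40 bases before the start, and each lay in the longer word TGCGTCA. Of 32851 promoters of 300 bases (250 before to 50 after a start), 20.8% held TGACG at least once, and 76 promoters, or 0.231%, held it 4 times or more. TGCGTCA was found in 2.12% of promoters and 4 times in 1 of them, that of Nr4a1. These letters were chosen after the Nr4a promoters had been read, so the counts are a description of those sequences. The whole cAMP element TGACGTCA, found in 1.79% of promoters, was in none of the windows of the 9 receptor genes searched.

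Rxra and Nr1d2 are shown because their RNAs were at least 2-fold lower after 6 h of KLA and their windows held words from a list of known elements. Rxrb, also lower at 6 h, held none of the listed words at any of its starts, and neither did the other start of Rxra. Whether the words bear on the RNA levels was not tested. For Rxra the window is chr2:27709042-27709291 on the plus strand, at 1 of the 2 starts listed. For Nr1d2 it is chr14:18239107-18239356 on the minus strand. Capitals mark the nuclear receptor core word AGGTCA on either strand, with the 2 bases before it where they complete the NR4A element AAAGGTCA, and in Nr1d2 also the kappa B word GGANTTTCC, which lies there on the other strand.
Rxra: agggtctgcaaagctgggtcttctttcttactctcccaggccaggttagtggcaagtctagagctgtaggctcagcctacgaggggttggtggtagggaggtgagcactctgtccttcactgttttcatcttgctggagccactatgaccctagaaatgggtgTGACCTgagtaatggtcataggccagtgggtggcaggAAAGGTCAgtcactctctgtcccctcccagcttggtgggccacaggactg
Nr1d2: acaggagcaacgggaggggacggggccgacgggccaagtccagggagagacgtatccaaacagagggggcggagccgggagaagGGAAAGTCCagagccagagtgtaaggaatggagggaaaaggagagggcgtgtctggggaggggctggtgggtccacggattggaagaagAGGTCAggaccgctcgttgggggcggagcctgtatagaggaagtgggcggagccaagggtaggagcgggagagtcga

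The core word was in 16.3% of all promoters, the NR4A element in 1.51% and the kappa B word in 1.25%. Rara held the core word at 1 of its starts and an E-box (CACGTG, in 7.15% of promoters) at 2 others that overlap. The sterol element TCACNCCAC (1.24% of promoters), the REV-ERB and ROR element ANTAGGTCA (0.661%) and the direct repeat of AGGTCA with 4 bases between, known as the LXR element (0.0152%), had no match in the windows of the 9 genes. A missing word says only that these letters are not in the window.

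The libraries held 2205187 to 2674826 reads by the totals recovered from the deposited values, of which 1883937 to 2309724 lay in genes. Levels are RPKM, reads scaled to transcript length and library size. With 1 library per condition there is no replicate and no test. A ratio of RPKM is given with its 95% counting interval, an exact conditional binomial interval on the recovered reads that covers counting error only. Calls use the log2 ratio of RPKM + 1, at least 2-fold, among 10605 genes with 1 RPKM or more in 2 libraries. Of the 10 receptors, 5 passed that filter: Nr1d2, Nr3c1, Rxra, Rxrb and Rara. A level of 0 means that no read was assigned. In bulk RNA, fewer cells with an RNA and less of it per cell cannot be told apart. The 1, 6 and 12 h comparisons share 1 untreated library.

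The macrophage markers were detected in every library, 7 of 8 being in the table. Their summed levels were 6224 to 10292 RPKM after KLA and 9184 to 11206 RPKM in untreated cells, most of it Lyz2 and Cd68. Single markers differed widely: Fcgr1 had 10.5 RPKM at 1 h and 234 RPKM at 12 h of KLA, and 12.8 and 15.5 RPKM untreated. Neutrophil markers summed to 53.1 to 128 RPKM after KLA and 52.2 to 53.9 RPKM untreated, most of it S100a8, with Mpo at 0 throughout. B cell markers summed to 5.68 to 9.71 RPKM after KLA and 10.8 to 12.8 RPKM untreated, and T and NK cell markers to 0.430 to 1.13 RPKM after KLA and 0.737 to 1.29 RPKM untreated. Mast cell markers summed to 0.361 to 0.832 RPKM after KLA and 0.593 to 0.798 RPKM untreated, with Cma1 and Mcpt4 at 0. The eosinophil genes Epx and Prg2 were at 0. Fibroblast and mesothelial markers summed to 97.6 to 182 RPKM after KLA, the highest at 24 h, and to 115 to 122 RPKM untreated. The part of these cells in the receptor values was not tested.

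Some of the 10 receptors were readily measured and others lay near the limit of these libraries. By mean level over the 6 libraries the order was Nr3c1 (17.5 RPKM), Rxra (12.7), Rxrb (7.71), Nr1d2 (4.29), Nr4a1 (3.94), Rara (3.76), Nr4a3 (0.684), Nr1d1 (0.670), Nr4a2 (0.272) and Vdr (0.138 RPKM). The range over libraries of each gene overlapped that of the next in this order, except between Rara (2.42 to 5.30 RPKM) and Nr4a3 (0 to 1.79 RPKM). Nr4a1 owed its place to 1 library. Vdr had 9 reads in all 6 libraries together, Nr4a2 had 12, Nr4a3 had 19 and Nr1d1 had 27.

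**Figure D1:**
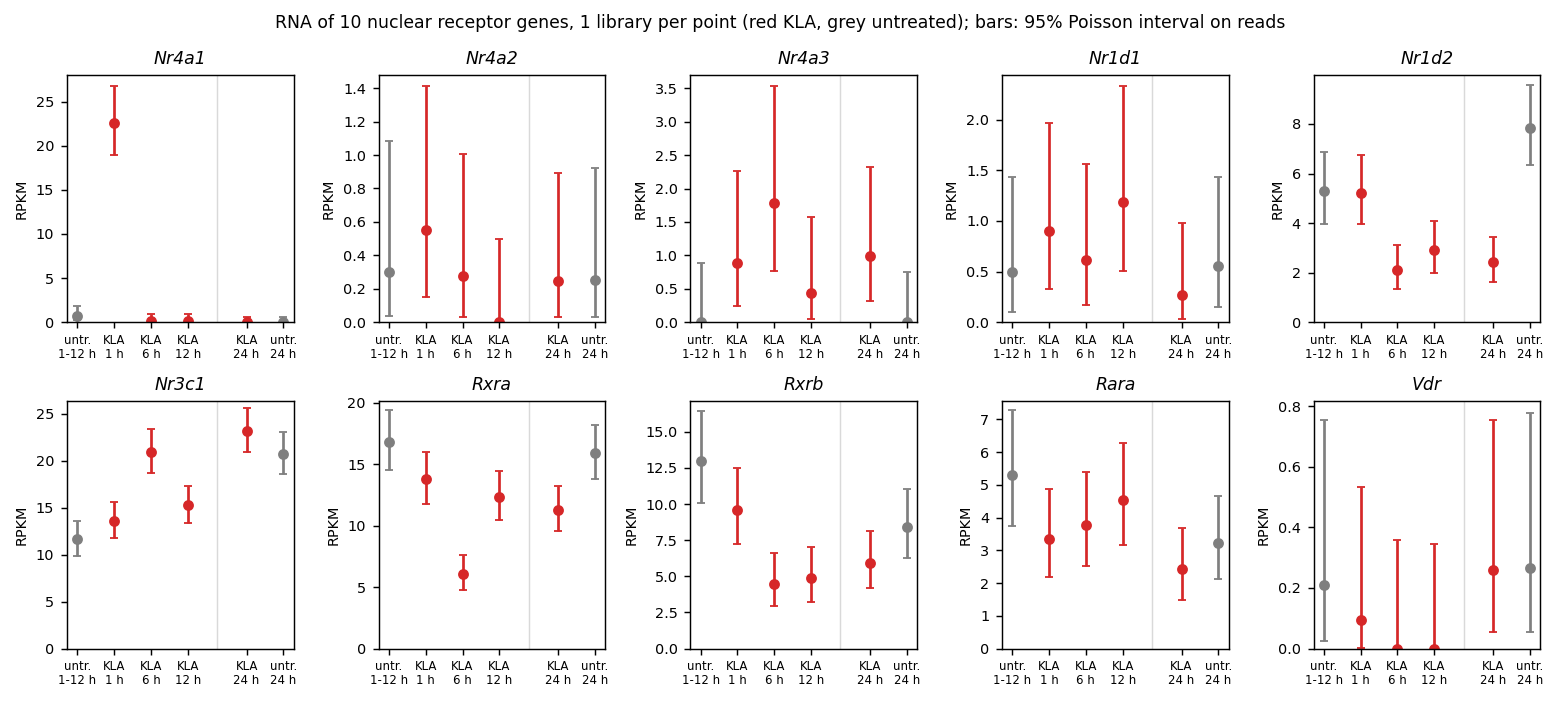
RPKM of each receptor gene (vertical axis, linear from 0, a scale of its own per panel) in the 6 libraries, red for KLA and grey for untreated, with 95% Poisson intervals on the reads. Nr4a1 stands at 22.6 RPKM at 1 h and below 1 RPKM in the other 5 libraries, while Nr3c1 is above 11 RPKM in all 6.

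Nr4a1 (NUR77; NM_010444, chr15:101097277-101105225, mm9, plus strand) was the receptor with the largest response, and it was brief. It had 0.733 RPKM in the untreated 1 to 12 h library, 22.6 RPKM at 1 h of KLA, 0.170 RPKM at 6 h and 0.165 RPKM at 12 h. At 24 h it had no read in KLA cells and none in untreated cells, which allows up to 0.453 RPKM with KLA and 0.468 RPKM without (3 reads). These values rest on 4, 134, 1 and 1 reads. The 1 h library was the only one above 1 RPKM. The ratio at 1 h was 30.8 (11.7 to 115). Against the untreated 24 h library, which had no read, Nr4a1 was 48.2-fold a floor of 3 reads, and the counting interval began at 38.6. The log2 ratio of 3.77 was exceeded by 56 of the 24014 genes, or 0.233%. This base includes the genes that did not pass the filter, Nr4a1 among them. From 1 h to 6 h the level was 132-fold lower (23.4 to 5271). At 6 and 12 h the ratios to the untreated library were 0.232 (0.00472 to 2.35) and 0.225 (0.00457 to 2.28), so no difference was detectable at this depth. Nr4a1 did not enter the counts of genes called because it reached 1 RPKM in 1 library only.

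Nr4a3 (NOR1; NM_015743, chr4:48064120-48096224, plus strand) was detected only with KLA, at far lower levels. It had no read in either untreated library, and 0.885 RPKM at 1 h, 1.79 RPKM at 6 h, 0.434 RPKM at 12 h and 0.993 RPKM at 24 h, from 4, 8, 2 and 5 reads. At 6 h it was 2.48-fold a floor of 3 reads in the untreated library. The counting interval of the ratio began at 1.59 and left out equality. At 1 h and at 24 h it was 1.23-fold and 1.61-fold a floor of 3 reads in its control. Those intervals began at 0.607 and 0.886 and held equality. Its highest library was 6 h where that of Nr4a1 was 1 h, although for Nr4a3 the 6 h and 1 h levels did not differ beyond counting error (ratio 2.02, 0.542 to 9.18).

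Nr4a2 (NURR1; NM_001139509, chr2:56959637-56976414, minus strand) had at most 4 reads in a library. It had 0.300 RPKM in the untreated 1 to 12 h library, 0.551 RPKM at 1 h, 0.279 RPKM at 6 h, no read at 12 h, and 0.247 RPKM with KLA against 0.256 RPKM without at 24 h. No difference was detectable: the ratio at 1 h was 1.84 (0.263 to 20.3). In the 1 h library the levels of the 3 Nr4a genes were 22.6 RPKM for Nr4a1, 0.885 RPKM for Nr4a3 and 0.551 RPKM for Nr4a2, the last 2 on 4 reads each. Whether the TGACG words of their promoters bear on these levels was not tested.

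The retinoid X receptors were lower at 6 h of KLA. From 6 to 12 h only Rxra rose beyond counting error. The intervals of this ratio overlapped for Rxra and Rxrb, so a difference between the genes was not shown. Rxra (NM_001290481, chr2:27564812-27618839, plus strand) had 16.8 RPKM in the untreated 1 to 12 h library, 13.8 RPKM at 1 h, 6.05 RPKM at 6 h and 12.4 RPKM at 12 h. At 24 h it had 11.3 RPKM with KLA and 15.9 RPKM without. The 6 h library was the lowest and both untreated libraries were the highest. The fold lower at 6 h was 2.79 (2.12 to 3.70), and the level at 12 h was 2.05-fold (1.54 to 2.74) that at 6 h. At 12 and 24 h Rxra was 1.36-fold (1.10 to 1.70) and 1.40-fold (1.13 to 1.74) lower than its controls. The 2 untreated libraries differed by a ratio of 0.942 (0.770 to 1.15).

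Rxrb (NM_001205216, chr17:34169295-34175348, plus strand) had 13.0 RPKM in the untreated 1 to 12 h library, 9.60 RPKM at 1 h, 4.50 RPKM at 6 h and 4.88 RPKM at 12 h. At 24 h it had 5.90 RPKM with KLA and 8.41 RPKM without. It was 2.88-fold lower at 6 h (1.80 to 4.77) and 2.66-fold lower at 12 h (1.68 to 4.29), and the 12 h level was within counting error of that at 6 h (ratio 1.09, 0.610 to 1.94). The untreated 24 h library was itself lower than the untreated 1 to 12 h one, with a ratio of 0.649 (0.442 to 0.948). Against that library Rxrb was 1.87-fold lower at 6 h (1.14 to 3.15) and 1.72-fold lower at 12 h (1.07 to 2.84), below the 2-fold mark, while the 24 h KLA library was 2.20-fold lower (1.45 to 3.38) than the untreated 1 to 12 h one. The whole of Rxrb lies in a dense region, and 3 or 4 other genes lie within 10 kb of each of its peaks.

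Nr1d2 (REV-ERBβ; NM_011584, chr14:19036570-19071620, minus strand) was lower from 6 h on. Relative to the control named for each time it was lowest at 24 h, an order that turned with the other untreated library. It had 5.28 RPKM in the untreated 1 to 12 h library, 5.21 RPKM at 1 h, 2.09 RPKM at 6 h and 2.91 RPKM at 12 h. At 24 h it had 2.42 RPKM with KLA and 7.83 RPKM without. The levels at 6, 12 and 24 h of KLA lay below those of the 1 h library and both untreated ones. The 95% interval at 12 h (2.00 to 4.08 RPKM) overlapped those at 1 h (3.96 to 6.73 RPKM) and in the untreated 1 to 12 h library (3.97 to 6.89 RPKM). The share of all genes with this order is not given here. It was 2.53-fold lower at 6 h (1.52 to 4.31), 1.82-fold lower at 12 h (1.16 to 2.89) and 3.24-fold lower at 24 h (2.13 to 5.06). The untreated libraries differed by a ratio of 1.48 (1.05 to 2.11), and with the other one as control Nr1d2 at 24 h had a log2 ratio of −0.88, no longer called, with a plain fold of 2.18 (1.37 to 3.53). With that exchange the 12 h library was called lower, at −1.18, and 6 h had the lowest log2 ratio, −1.52. Its relative Nr1d1 (REV-ERBα; NM_145434, chr11:98629246-98636691, minus strand) had 2 to 8 reads a library. It stood at 0.492 RPKM in the untreated 1 to 12 h library, 0.905 RPKM at 1 h, 0.610 RPKM at 6 h, 1.18 RPKM at 12 h, and 0.271 RPKM with KLA against 0.559 RPKM without at 24 h. Each of its ratios was within counting error, among them that at 12 h of 2.40 (0.577 to 14.1).

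Nr3c1, the glucocorticoid receptor (NM_008173, chr18:39570199-39646899, minus strand), was the only receptor of the 5 that stood above the untreated 1 to 12 h library after KLA, and its value depended on which untreated library was used. It had 11.6 RPKM in the untreated 1 to 12 h library, 13.6 RPKM at 1 h, 20.9 RPKM at 6 h and 15.2 RPKM at 12 h. At 24 h it had 23.2 RPKM with KLA and 20.7 RPKM without. The ratio at 6 h was 1.80 (1.49 to 2.19), below 2-fold, and at 24 h it was 1.12 (0.965 to 1.30). The 2 untreated libraries, however, differed by as much as KLA did at 6 h, with a ratio of 1.78 (1.47 to 2.16). Of the 10605 genes tested, 929, or 8.76%, differed more between the untreated libraries. With the untreated 24 h library as control, the 6 h ratio was 1.01 (0.864 to 1.18), and at 1 h and 12 h Nr3c1 was 1.53-fold (1.28 to 1.82) and 1.36-fold (1.15 to 1.61) lower.

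Rara, the retinoic acid receptor α (NM_009024, chr11:98799010-98836256, plus strand), showed no difference beyond counting error from its control at any time. It had 5.30 RPKM in the untreated 1 to 12 h library, 3.33 RPKM at 1 h, 3.76 RPKM at 6 h and 4.53 RPKM at 12 h, and 2.42 RPKM with KLA against 3.21 RPKM without at 24 h. The ratios were 0.629 (0.367 to 1.06) at 1 h, 0.709 (0.422 to 1.18) at 6 h, 0.854 (0.526 to 1.38) at 12 h and 0.752 (0.404 to 1.38) at 24 h. Against the untreated 1 to 12 h library the 24 h value was 2.19-fold lower (1.26 to 3.94). Vdr, the vitamin D receptor (NM_009504, chr15:97684858-97738727, minus strand), was at or near 0. It had 0.208 RPKM in the untreated 1 to 12 h library, 0.0957 RPKM at 1 h, no read at 6 or 12 h, and 0.258 RPKM with KLA against 0.266 RPKM without at 24 h. A count of 0 allows up to 0.290 RPKM at 6 h and 0.282 RPKM at 12 h.

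Of the 5 receptors that passed the filter, none was 2-fold higher or lower at 1 h, where 3.65% of all genes were higher and 4.09% lower. At 6 h, 3 were lower (Nr1d2, Rxra and Rxrb) and none higher, beside 22.4% of all genes lower and 9.35% higher. At 12 h, 1 was lower (Rxrb), beside 16.3% of all genes lower and 8.88% higher. At 24 h, 1 was lower (Nr1d2), beside 10.6% of all genes lower and 9.98% higher. Between the untreated libraries none differed 2-fold, where 1.72% of genes were higher and 2.42% lower in the 24 h one. With the untreated libraries exchanged as controls, those lower were Nr1d2 and Rxra at 6 h, Nr1d2 in place of Rxrb at 12 h and Rxrb in place of Nr1d2 at 24 h. Of the 10605 genes tested, 525, 2526, 2158 and 1239 were then lower at 1, 6, 12 and 24 h. Those higher numbered 425, 959, 1033 and 1097. The median log2 ratio of the 5 at 1, 6, 12 and 24 h was −0.27, −1.02, −0.42 and −0.45, against −0.16, −0.46, −0.32 and −0.09 for all genes tested.

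The median of all genes was itself lower at 6 h, by a log2 ratio of −0.46. Relative to the median of all genes at 6 h, the log2 ratio was −0.88 for Rxra, −0.89 for Rxrb, −0.57 for Nr1d2, 0.05 for Rara and 1.25 for Nr3c1. With libraries rescaled by the median ratio over genes tested, no receptor was 2-fold lower at 6 or 12 h, and Nr3c1 was called higher at 6 h with a log2 ratio of 1.31. The genes called in the whole table then numbered 1494 higher and 1158 lower at 6 h, where the deposited scale gave 992 higher and 2375 lower. At 12 h they were 1284 higher and 962 lower, against 942 and 1730. At 1 h they were 448 higher and 255 lower, against 387 and 434. At 24 h they were 1136 higher and 943 lower, against 1058 and 1122. Nr1d2 at 24 h (log2 ratio −1.25 rescaled, −1.37 as deposited) and Nr4a1 at 1 h (3.84 rescaled) kept their size.

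**Figure D2:**
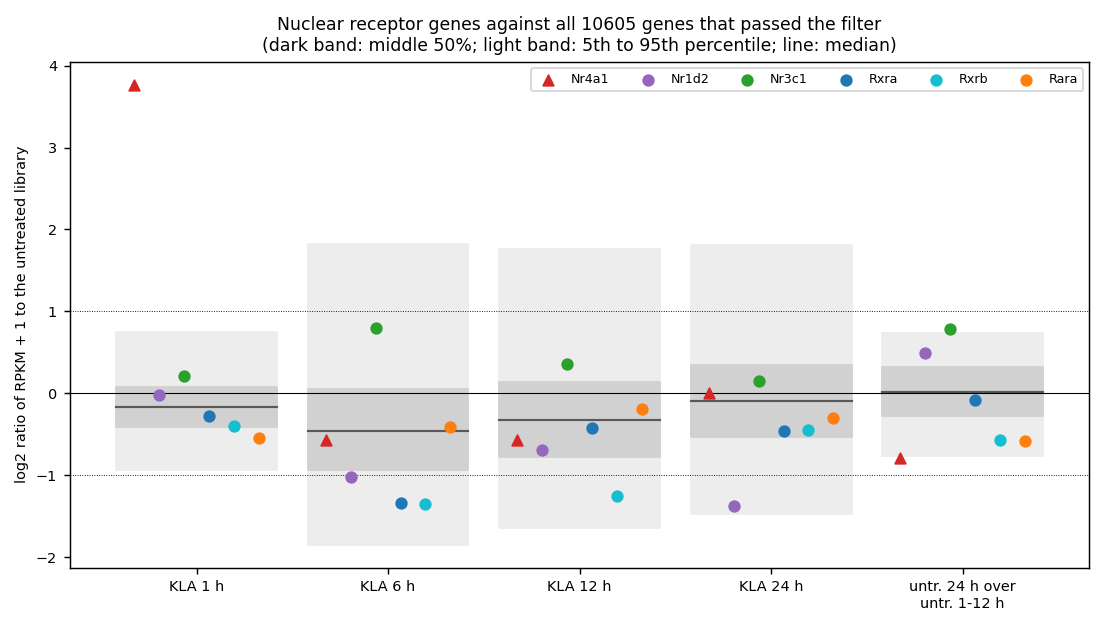
Log2 ratio of RPKM + 1 (vertical axis) for the 5 receptors that passed the filter and for Nr4a1 (triangles), in each KLA library over its untreated control and in the untreated 24 h library over the untreated 1 to 12 h one, with bands for all genes tested and dotted lines at 2-fold. Rxra, Rxrb and Nr1d2 lie below −1 at 6 h, where the median of all genes is at −0.46.

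The genes with the pattern most like a receptor were taken by the highest Pearson r of log2(RPKM + 1) over the 6 libraries, among about 6437 genes with a range of at least 1 on that scale. For Nr1d2 these were Bbs9 (r = 0.995), Il7r (0.991), the interleukin-7 receptor, and Fnip2 (0.991). Il7r stood at 304 RPKM untreated and at 301, 103 and 162 RPKM after 1, 6 and 12 h of KLA, and at 145 RPKM with KLA against 435 RPKM without at 24 h. For Rxra they were Pigyl (0.995), Sirpa (0.993), a receptor for the signal CD47, and 9030624J02Rik (0.993). For Rxrb they were Sbk1 (0.997), Mettl15 (0.996) and Gas2l1 (0.996), of which Sbk1 and Mettl15 stayed at or below 2.99 RPKM. For Nr3c1 they were Snord47 (0.981), Atrnl1 (0.974) and Zfp281 (0.968), and for Rara Med29 (0.973), Cyp4f39 (0.971) and Igfbp6 (0.963). Low levels were also those of Bbs9 (at most 3.20 RPKM), Atrnl1 (3.86 RPKM), Cyp4f39 (2.77 RPKM) and Igfbp6 (2.82 RPKM). For Nr4a1, which was added after its values were seen, they were Gtf2b (0.992), Nfkbid (0.991) and Hilpda (0.988), all highest at 1 h. The points share library and depth, and the genes were picked as the highest of all those candidates.

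Of the other 38 nuclear receptor genes of the mouse list, 11 passed the filter and 13 were at 0 in every library. The rest had reads but did not pass. Of the 11, none was higher at any time, and 1, 4, 3 and 2 were lower at 1, 6, 12 and 24 h, beside 4.09%, 22.4%, 16.3% and 10.6% of all genes. Their median log2 ratio over the 4 times was −0.01, −0.74, −0.01 and −0.19. Pparg, the partner of RXR in fat storage, was lowest, with 5.01 RPKM at 6 h against 64.1 RPKM untreated (12.8-fold lower, 8.20 to 21.1). Nr2f6 was 2.18-fold lower at 1 h (1.43 to 3.37) and 3.42-fold lower at 6 h (2.09 to 5.81). Rarg, a retinoic acid receptor, was 2.76-fold lower at 6 h (1.51 to 5.26) and Thra, a thyroid hormone receptor, 3.95-fold lower (1.04 to 22.0). Nr2c2 was 3.55-fold lower at 12 h (1.95 to 6.83), and Rora, which binds the same element as the REV-ERBs, 3.07-fold lower at 24 h (2.11 to 4.56). Rora rested on its control: it had 1.31 RPKM with KLA at 24 h against 4.02 RPKM in the untreated 24 h library, but 1.71 RPKM in the untreated 1 to 12 h one. With the untreated libraries exchanged, Pparg was still lower at 6, 12 and 24 h. Thra, Rarg and Nr2f6 were then not called at 6 h, nor Nr2f6 at 1 or 12 h, nor Rora at 24 h. Rora and Nr2c2 became lower at 6 h, Rora at 12 h and Nr2f6 at 24 h, and 1 gene of the list became higher at 12 h. Rescaled, Pparg and Nr2f6 remained lower at 6 h, Pparg at 12 h, where Ppard became higher, and Pparg and Rora at 24 h. Of 17 coactivator and corepressor genes that passed, none was called at 1 h or 12 h, and 2 were lower at 24 h, beside 10.6% of all genes. Their median log2 ratio over the 4 times was −0.15, −0.28, −0.52 and −0.18. Those lower at 24 h were Rcor1 (2.64-fold, 1.80 to 3.95) and Tbl1xr1 (2.13-fold, 1.78 to 2.56). Both rested on the untreated 24 h library. Rcor1 had 5.22 RPKM with KLA at 24 h, against 13.8 RPKM there, and Tbl1xr1 had 8.28 RPKM at 24 h, against 17.6 RPKM there and 9.65 RPKM in the untreated 1 to 12 h library. With the untreated libraries exchanged, none of the list was called at 24 h, 1 was lower at 1 h (Tbl1xr1) and 6 were lower at 12 h. Of all 10605 genes, 525 and 2158 were then lower at 1 and 12 h. Tbl1x was 2.94-fold higher (1.71 to 5.27) in the untreated 24 h library than in the untreated 1 to 12 h one.

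Some of the clock genes, among which the REV-ERBs act, were lower from 6 h of KLA on. Of 15 that passed the filter, 5 were lower at each of 6, 12 and 24 h, none was called at 1 h, and none was higher. The shares of all genes lower were 22.4%, 16.3% and 10.6%. With the untreated libraries exchanged, 7, 8 and 2 were lower, beside 2526, 2158 and 1239 of the 10605 genes tested. Dbp and Tef were among those lower each time. Arntl at 12 h and Npas2, Rora and Csnk1e at 24 h were then not called. The medians over the 4 times were 0.01, −0.74, −0.80 and −0.69. Dbp, a clock output factor, had 0.251 RPKM at 6 h against 4.33 RPKM untreated, and 0.223 RPKM with KLA against 5.30 RPKM without at 24 h, where it was 23.8-fold lower (3.86 to 979). Tef, its relative, was 8.93-fold lower at 6 h (4.62 to 19.3) and 2.95-fold lower at 24 h (2.05 to 4.32). Bhlhe40, a repressor of the clock, had 26.5 RPKM at 6 h against 124 RPKM untreated (4.68-fold lower, 4.00 to 5.50). Csnk1e, a kinase of PER proteins, was 2.97-fold lower at 6 h (1.97 to 4.56), and Arntl, which encodes BMAL1, 3.70-fold lower at 12 h (1.43 to 11.3). Npas2 was 16.5-fold lower at 24 h (2.57 to 694). Rescaled, 3 were lower at 6 h (Dbp, Tef and Bhlhe40), 2 at 12 h (Dbp and Bhlhe40) and 4 at 24 h (Npas2, Dbp, Tef and Rora), and Nfil3 became higher at 1 h. Of the 10605 genes tested, 1158, 962 and 943 were then lower at 6, 12 and 24 h, and 448 higher at 1 h.

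Immediate early genes, the class to which Nr4a1 belongs, were the list that moved most at 1 h. Of 12 that passed, 8 were higher and none lower at 1 h, beside 3.65% and 4.09% of all genes, with a median log2 ratio of 2.73. Egr1 had 216 RPKM with KLA against 3.84 RPKM without (56.2-fold, 38.2 to 86.3), and Dusp1, a MAP kinase phosphatase, had 1235 RPKM against 27.6 RPKM (44.8-fold, 37.3 to 54.2). Dusp2 was 11.9-fold higher (7.90 to 18.6) and Ier3 11.6-fold (7.72 to 18.2). Unlike Nr4a1, Ier3 was still at 117 RPKM at 6 h and at 108 RPKM with KLA against 6.39 RPKM without at 24 h. At 6 h 2 were higher and 3 lower, with Junb 2.40-fold higher (2.11 to 2.74), and Jun 5.53-fold (4.46 to 6.91) and Fos 3.08-fold (1.87 to 5.26) lower. At 12 h 3 were higher and 3 lower, with Crem 3.41-fold higher (1.87 to 6.66) and Egr1 5.77-fold lower (2.18 to 19.2). At 24 h 4 were higher and 3 lower, with Crem 5.48-fold (3.53 to 8.85) and Fosl1 6.45-fold (1.91 to 33.9) higher and Dusp2 4.65-fold lower (1.53 to 18.9). Fosl1 passed the filter through KLA libraries alone, with 0.798 RPKM in the untreated 1 to 12 h library and 0.680 RPKM in the untreated 24 h one. The medians were 0.09, 0.13 and 0.38 at 6, 12 and 24 h. Junb (2.05-fold, 1.70 to 2.47) and Egr1 (3.05-fold, 1.42 to 7.09) were lower in the untreated 24 h library than in the untreated 1 to 12 h one. With the untreated libraries exchanged, 9 were higher at 1 h, beside 425 of the 10605 genes tested. At 6 h 5 were then higher and 2 lower, beside 959 and 2526 of all genes tested. Egr1 at 12 h was not called lower and Junb at 24 h was not called higher. Rescaled, 5 were higher and 1 lower at 6 h, beside 1494 and 1158 of all genes tested. The shares of all genes called at the later times stand with the receptor counts.

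Of 16 chaperones and known targets of the glucocorticoid receptor that passed, some were higher and some lower at 1, 6 and 24 h, and at 12 h 4 were lower. At 1 h 3 were higher and 1 lower, beside 3.65% and 4.09% of all genes, at 6 h 1 and 5, beside 9.35% and 22.4%, at 12 h none and 4, beside 8.88% and 16.3%, and at 24 h 4 and 3, beside 9.98% and 10.6%, with medians of 0.25, 0.02, −0.01 and 0.42. Tsc22d3, which encodes the glucocorticoid-induced leucine zipper, was lower at all 4 times: 21.6 RPKM at 1 h, 2.99 RPKM at 6 h and 16.0 RPKM at 12 h, against 83.5 RPKM untreated, and 24.5 RPKM with KLA against 97.2 RPKM without at 24 h. Its folds lower were 3.87 (3.10 to 4.87), 27.9 (16.4 to 51.5), 5.23 (4.08 to 6.78) and 3.97 (3.27 to 4.86). Anxa1, annexin A1, had 414 RPKM at 12 h against 1673 RPKM untreated (4.04-fold lower, 3.81 to 4.29) and was 6.19-fold lower at 24 h (5.79 to 6.63). Klf9 was 2.84-fold lower at 6 h (1.95 to 4.22), and Per1, also a clock gene, 4.44-fold (2.01 to 11.1). Higher at 1 h were Dusp1, which is also in the immediate early list, Errfi1 (22.3-fold, 12.8 to 42.3) and the metallothionein Mt2 (5.57-fold, 3.21 to 10.4), and Ddit4 was higher at 24 h (15.5-fold, 3.95 to 133, on 2 untreated reads). Mt1 was 3.23-fold lower at 12 h (2.61 to 4.03). Rescaled, 2 were higher and 1 lower at 6 h, and 4 and 3 at 12 h. Of the 10605 genes tested, 1494 were then higher and 1158 lower at 6 h, and 1284 and 962 at 12 h. Tsc22d3 was among those lower at every time, as it was with the untreated libraries exchanged.

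Of 9 genes of retinoid metabolism and response that passed, 1 was higher at each time and it was Tgm2, the retinoic acid-induced transglutaminase 2: 72.1 RPKM at 1 h, 136 RPKM at 6 h and 143 RPKM at 12 h, against 21.5 RPKM untreated, and 144 RPKM with KLA against 21.8 RPKM without at 24 h. Its folds were 3.36 (2.83 to 4.01), 6.35 (5.39 to 7.51), 6.64 (5.65 to 7.85) and 6.62 (5.70 to 7.72). None was lower at 1 h, while 3, 3 and 2 were lower at 6, 12 and 24 h, beside 22.4%, 16.3% and 10.6% of all genes, and the medians over the 4 times were 0.16, −0.19, −0.11 and −0.51. Dhrs3, a retinaldehyde reductase, had 46.9 RPKM at 6 h against 337 RPKM untreated (7.19-fold lower, 6.05 to 8.60) and was 5.43-fold lower at 24 h (4.64 to 6.37). Dhrs9 was 2.27-fold lower at 6 h (1.80 to 2.88). Rescaled, Tgm2 higher and Dhrs3 lower were the calls at 6, 12 and 24 h. Of 8 vitamin D genes, 3 passed. Cyp27a1, a sterol and vitamin D hydroxylase, was lower from 6 h on, with 1.56 RPKM at 6 h against 9.60 RPKM untreated (6.15-fold lower, 2.73 to 16.3) and 0.396 RPKM with KLA against 11.0 RPKM without at 24 h (27.9-fold lower, 7.36 to 236). Camp was higher at 12 and 24 h, on 7 reads each, with no read in the other libraries. It passed the filter through those libraries alone, so it could only be called higher there. The medians were 0.04, −0.07, 0.45 and −0.40. Cyp24a1, the classic VDR target, had no read in any library.

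**Figure D3:**
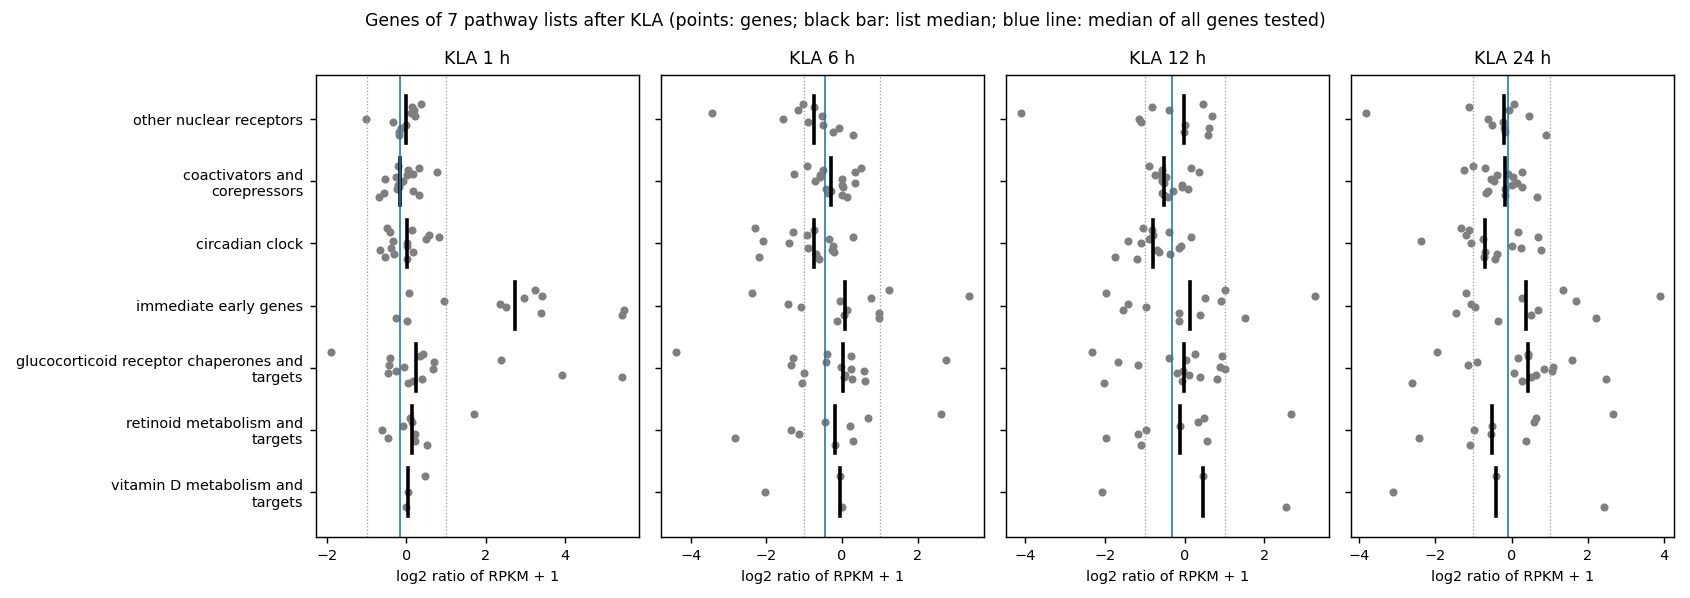
Log2 ratio of RPKM + 1 at 1, 6, 12 and 24 h of KLA over the untreated control (horizontal axes) for every gene of 7 lists that passed the filter, with the list median as a black bar and the median of all genes tested as a blue line. The immediate early list has its median at 2.73 at 1 h and the clock list at −0.74, −0.80 and −0.69 at 6, 12 and 24 h.

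The peak lists hold 13984 SREBP1 peaks of 194 bases and 40660 LXR peaks of 184 bases, with the doubt on the LXR sample's treatment and the different hours given above. The header of the LXR list gives as its input a library of 24 h KLA cells, and that of the SREBP1 list gives an untreated input and a combined set of tags. SREBP1 is the sterol-regulated factor that drives lipid synthesis. The tag counts, folds and ranks below are the authors' values or are taken from them, with tags scaled to 10000000 per library. Each factor has 1 list, so peaks carry no replicate error. SREBP1 had 9 of the 10 receptors with at least 1 peak, beside 41.3% of 20615 coding genes and 65.8% of those that passed the RNA filter. LXR likewise had 9 of 10, beside 54.7% of coding genes and 81.9% of those that passed the filter. Overlapping LXR and SREBP1 peaks lay at 3 receptors (Nr4a3, Rxra and Rara), beside 14.2% and 23.6%.

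At the Nr4a genes, LXR had peaks of 30.7, 28.0 and 30.7 tags at −701, −4115 and −9780 bases from the start of Nr4a1, counted negative before a start, where SREBP1 had none. SREBP1 had 1 peak of 10.7 tags inside Nr4a2, where LXR had none. At Nr4a3 both had peaks upstream: SREBP1 16.8, 16.0 and 12.7 tags at −6208, −7741 and −5751 bases from the start, and LXR 29.3 and 21.3 tags at −8406 and −7730 bases. The SREBP1 peak at chr4:48056282-48056476 and the LXR peak at chr4:48056298-48056482 (mm9) had centres 11 bases apart, the closest pair at any of the 10 genes. The median peak had 11.1 tags in the SREBP1 list and 28.0 in the LXR list. The strongest of these SREBP1 peaks was at rank 1388 of its list, and the strongest of these LXR peaks at rank 17540.

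At the REV-ERB genes most peaks lay close to the start. Nr1d1 had SREBP1 peaks of 16.8 and 10.7 tags at −225 and 414 bases from the start, and LXR peaks of 37.3, 26.7 and 57.3 tags at −615, 1552 and −8107 bases. Nr1d2 had SREBP1 peaks of 8.61, 10.7 and 11.1 tags at −568, 246 and 1222 bases from the start, and LXR peaks of 42.7, 42.7 and 38.7 tags at 836, 2137 and 5112 bases. None of these peaks overlapped one of the other factor, the nearest centres being 386 bases apart at Nr1d2 and 390 at Nr1d1. Nr3c1 had SREBP1 peaks of 16.0 tags 69 bases and 25.8 tags 633 bases inside the gene, the larger at rank 295 of the list. Its 4 LXR peaks, of 20.0 to 41.3 tags, lay at −3806, 3469, 26256 and 28354 bases.

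Rara had the strongest LXR peak of the 10 genes, 315.9 tags at chr11:98811133-98811317, 10200 bases from the nearest start and inside an intron, at rank 340 of 40660. Its 4 other LXR peaks had 22.7 to 64.0 tags. One of its SREBP1 peaks, of 13.9 tags, overlapped an LXR peak of 32.0 tags with centres 78 bases apart. Rxrb had LXR peaks of 38.7 tags 174 bases inside the gene and 36.0 tags at −140 bases, with 2 weaker ones, and SREBP1 peaks of 11.1 and 10.2 tags. All 6 also lie within 10 kb of H2-Ke6, Ring1 and Slc39a7 or inside them, so they cannot be assigned to Rxrb alone. The LXR peaks of Vdr had 17.3 to 65.3 tags and those of Rxra 25.3 to 48.0 tags, all in introns.

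**Figure D4:**
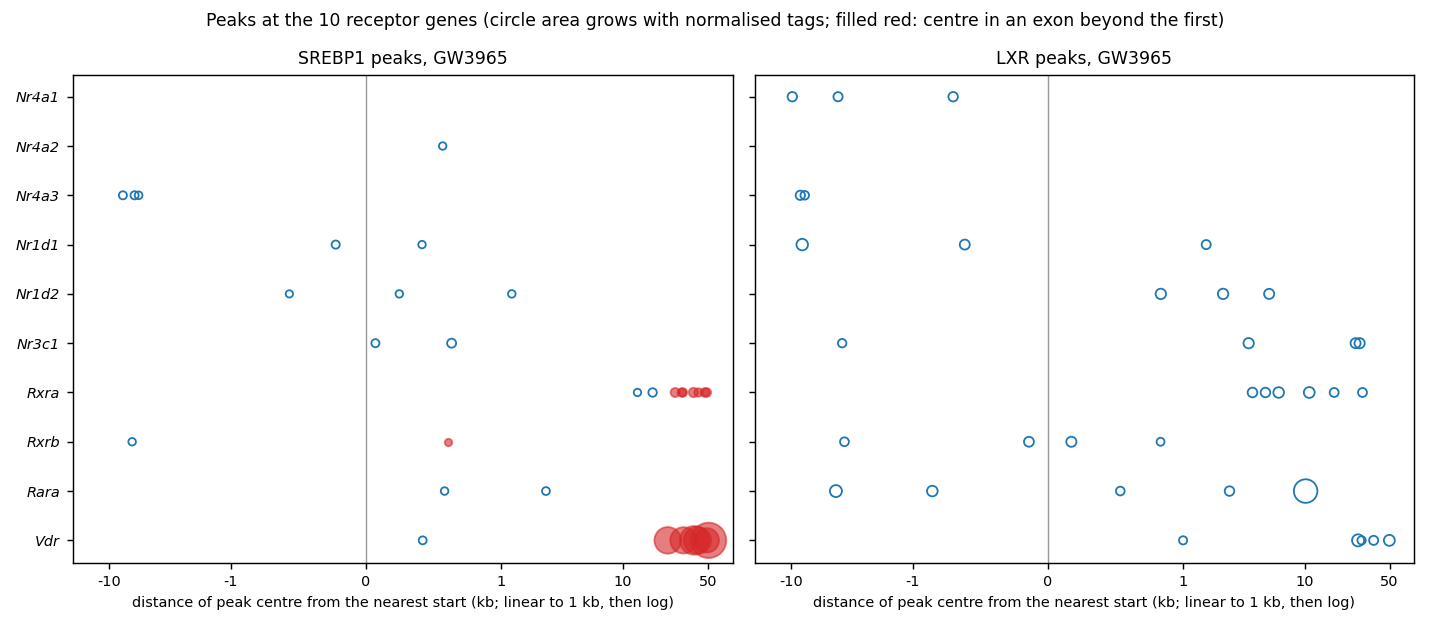
Distance of each SREBP1 peak (left) and LXR peak (right) from the nearest start of the gene (horizontal axis, linear to 1 kb and logarithmic beyond), with circle area growing with normalised tags and filled circles for centres in an exon beyond the first. The 6 large filled circles at Vdr hold 336.5 to 744.4 tags, and the large open circle at Rara 315.9. Exons could not be placed for Nr4a1, Nr4a3 and Nr3c1, whose circles are all open.

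The SREBP1 peaks of Vdr and Rxra were more numerous than those of the other 8 genes, which had 0 to 3 each. Vdr, whose RNA had at most 3 reads in a library, held by tags the SREBP1 peaks of rank 2 to 7 in the whole list, with 744.4, 480.8, 428.8, 412.0, 401.3 and 336.5 tags, while the peak of rank 8 had 164.0. The 6 had folds over the input of 122 to 949. They lay 23424 to 50751 bases inside the gene, where LXR had no overlapping peak. The 7th SREBP1 peak of Vdr, 419 bases inside, had 14.8 tags. Rxra had 9 SREBP1 peaks of 9.84 to 29.9 tags. Of 20615 coding genes, 34 had 7 or more SREBP1 peaks and 6 had 9, the highest number.

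These peaks followed the exons. The mm9 span of the Vdr transcript and of each of the 3 Rxra transcripts is as long as in the annotation of GRCm38, so exons were placed by their distance from the start. Of neighbouring transcripts, 33 of 33 at Vdr and 7 of 7 at Rxra were offset between the builds by the same distance. All 6 strong Vdr peaks were centred in exons, 1 each in exons 3, 4, 5, 7, 8 and 10 of 10. At Rxra, 7 of the 9 were centred in exons, 1 each in exons 2 to 6, 9 and 10 of 10. Exons beyond the first make up 7.97% of the Vdr span and 5.81% of the Rxra span. Of all SREBP1 peaks inside transcripts placed in this way, 339 of 5452, or 6.22%, were centred in an exon beyond the first, and for LXR 641 of 14046, or 4.56%. Among the 50 SREBP1 peaks of most tags the share was 7 of 10 inside transcripts, 6 of them at Vdr, and among the 50 LXR peaks of most tags it was 0 of 11. No other gene with a transcript placed in this way had SREBP1 peaks in more than 2 such exons. Of 28697 coding transcripts, 20818, or 72.5%, could be placed. None of Nr4a1, Nr4a3 or Nr3c1 could be, so the SREBP1 peaks inside Nr3c1 were not compared with exons. At Rxrb, 1 of the 2 SREBP1 peaks, of 10.2 tags, was centred in exon 2 of 10. None of the 11 LXR peaks of Vdr and Rxra was centred in an exon. The exonic peaks of Vdr summed to 2804 tags, or 1.60% of the tags of all SREBP1 peaks. What produced the exonic pattern was not tested. Without these 14 exonic peaks, the 10 receptors had 17 SREBP1 peaks in place of 31, at the same 9 genes.

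**Figure D5:**
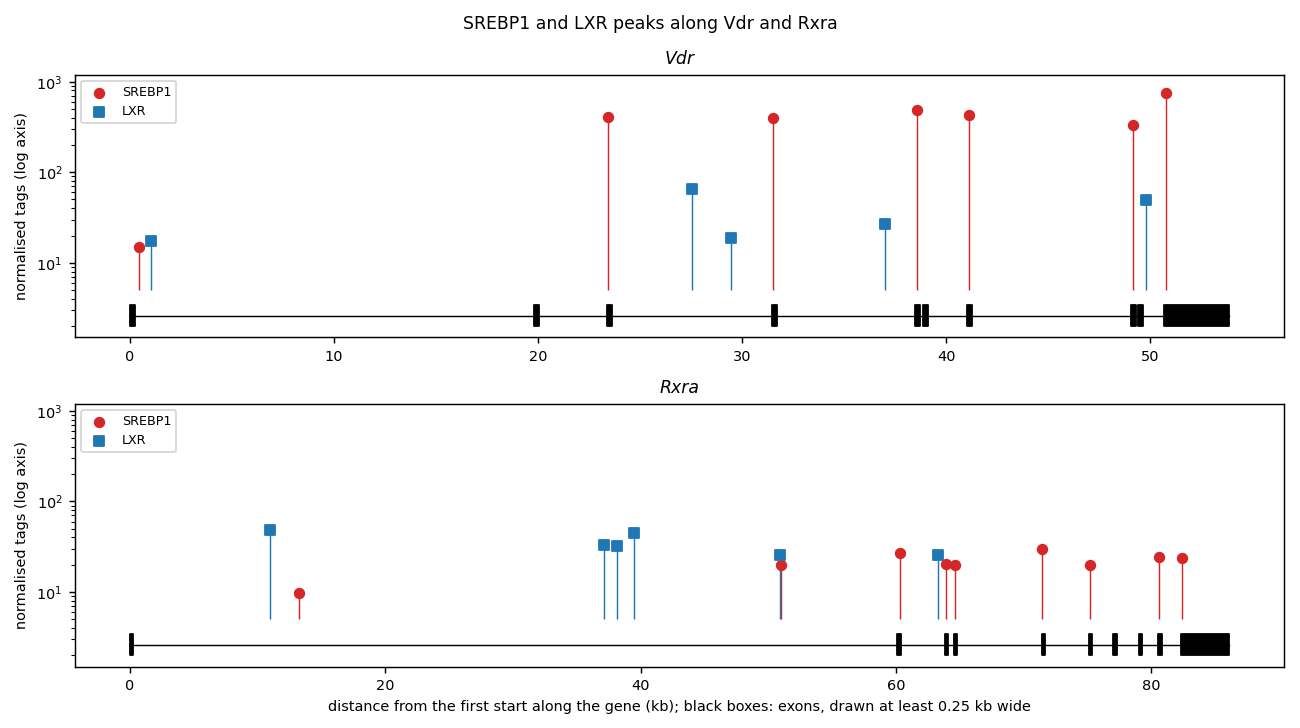
Normalised tags (vertical axis, logarithmic) of SREBP1 and LXR peaks along Vdr (top) and Rxra (bottom) by distance from the first start in kb, with exons as black boxes. The 6 SREBP1 peaks of 336.5 to 744.4 tags at Vdr and 7 of the 9 at Rxra stand over exons, and the LXR peaks stand over introns.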

How the data were processed

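Polyadenylated RNA of 6 macrophage libraries and the SREBP1 and LXR peak lists were used, 8 of the 103 samples labelled, and the others were not analysed here. The RNA table holds RPKM made by the authors for 33022 transcripts, with transcript lengths as deposited, on build mm9, per the submitters' processing notes, which also name Bowtie 0.12.7, STAR and HOMER without saying for which files. The sources used here do not say whether reads were counted by strand. Per the file headers, peaks were called with HOMER at a false discovery rate of 0.001 and at least 4-fold over input and over the local 10000 bases, from 24395376 SREBP1 tags and 7501248 LXR tags. The peak lists give, per the file headers, a normalised tag count (signal scaled to 10000000 tags), the ratio or fold over input and local background, a score and p-values, and the p-values were not used. The headers put the approximate efficiency of the immunoprecipitation at 1.75% for SREBP1 and 17.85% for LXR.

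Library totals were recovered from the steps between low RPKM values: between 99.9682% and 99.9733% of non-zero values were whole reads within 0.01 read. One read in 1 kb was worth 0.374 to 0.453 RPKM. With 1 library per condition no count model was fitted. Ratios used a pseudocount of 1 RPKM on the log2 scale, which understates changes of low genes, and the filter was 1 RPKM in 2 libraries. Intervals are 95% exact binomial (Clopper-Pearson) intervals on recovered reads, and they and the floor of 3 reads cover counting error only. The 10 genes and all lists were chosen with earlier results of these data known. The text names the 10 genes, up to 4 genes per list and comparison by size past 2-fold with at least 10 reads in a library, and 3 most like genes per receptor. Results of 2 genes of these lists are not reported here. Per1 at 6 h is named under the glucocorticoid list, and Camp, Ppard and Nfil3 were named after their values were seen. Alternatives were other pseudocounts, rescaling by the median ratio, no filter, the other untreated library, the longest transcript, a counting interval and a plain ratio, and for peaks other thresholds, windows and overlaps. Promoters of 9 receptors were matched by symbol to RefSeq, build GRCm38.p6. Calculations used Python 3.11.15, numpy 2.4.6, pandas 2.3.3, scipy 1.17.1 and matplotlib 3.10.9, and were tested on simulated data.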

Additional observations from a re-analysis of the deposited data

How the results depend on the processing

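No paired analysis was possible because each condition had 1 library. Of the counts and values that answer a comparison, 79 stayed within 1.5 times under the alternatives and 10 moved. Many of the 79 were counts of 0 that stayed 0, so the tally is no measure of stability. A like count also did not mean like genes. With the other untreated library the receptor lower at 12 h was Nr1d2 in place of Rxrb, that at 24 h Rxrb in place of Nr1d2, and 2 were lower at 6 h, without Rxrb. With a pseudocount of 3, 2 were lower at 6 h, without Nr1d2. With a pseudocount of 3, 0 receptors were 2-fold lower at 24 h, against 1. Rescaled by the median ratio, 0 were lower at 6 h (against 3) and 0 at 12 h (against 1), and 1 was higher at 6 h, Nr3c1. With no filter, 1 was higher at 1 h (Nr4a1) and 1 at 6 h (Nr4a3), beside 427 and 1036 of 24014 genes. With peaks of at least 8-fold, 4 receptors had a SREBP1 peak (against 9) and 0 had overlapping SREBP1 and LXR peaks (against 3). Of 20615 coding genes, 3225 then had a SREBP1 peak and 747 had overlapping peaks. Overlapping peaks lay at 6 receptors in a 50 kb window and at 1 with centres within 50 bases, beside 5975 and 1031 of 20615 coding genes. No called value changed sign. With the other untreated library the uncalled log2 ratios of Nr3c1 at 1 h (−0.58, against 0.21) and 12 h (−0.42, against 0.37) and of Rxrb at 1 h (0.17, against −0.40) did, as did those of Rara at 1, 6 and 12 h and of Nr4a1 at 6 and 12 h. Rescaled, those of Nr1d2 at 1 h and Rara at 6 and 12 h did. Among values of single genes and peak numbers, 154 stayed within their counting error or, for numbers of peaks, within 1.5 times, and 29 moved further. Over all genes, the count of lower genes at 1 h was 434, and 880, 127, 255 and 858 with a pseudocount of 0.1, a pseudocount of 3, rescaling and the plain ratio. At 6 h it was 2375, and 1366 with a pseudocount of 3 and 1158 rescaled, while the higher genes numbered 992 and 1494 rescaled. At 12 h the lower genes numbered 1730, and 920 with a pseudocount of 3 and 962 rescaled, and at 24 h 1122 and 694 with a pseudocount of 3. Between the untreated libraries 257 were lower, and 496, 116, 157 and 439 with a pseudocount of 0.1, of 3, beyond counting error and on the plain ratio, and 182 were higher, and 506, 76, 78 and 415. The plain ratio, the exchange of controls for the lists and the setting without exonic peaks were chosen after seeing the data. Nr4a2, Nr4a3, Nr1d1 and Vdr are limited by depth, with 27 reads or fewer each in all 6 libraries, so that only large differences could be seen. Replicate error is unknown throughout.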
